A study of Mus musculus with 6 samples.

Results

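Carbonic anhydrases are zinc enzymes that interconvert carbon dioxide and bicarbonate, and 8 of their genes were followed here through the mouse uterus: Car2, Car3, Car4, Car8, Car9, Car12, Car13 and Car14. The 8 genes were chosen by their measured levels in these tables, by cell type, epithelial cluster, library, section and spot cluster, from 24077 genes in the single-cell tables and 30828 in the spatial tables. Their levels are therefore given as a description. Another 8 carbonic anhydrase genes stood in the same tables and are summarised with the pathway lists. Female CD-1 mice were injected under the skin on days 1 to 5 after birth. They received corn oil (CO) or the synthetic estrogen diethylstilbestrol (DES, 1 mg/kg/day), and their uteri were taken at 12 months of age. CO mice were taken in estrus, because the study describes DES-exposed adults as staying in persistent estrus. Single-cell RNA was read from 1 CO library, which pooled 2 mice, and 1 DES library, which pooled 4 mice, after trypsin digestion. Spatial RNA was read from 2 CO and 2 DES longitudinal sections of 1 mouse each, called CO A, CO B, DES A and DES B, and the DES sections were picked to hold adenocarcinoma. Section CO B had a large tissue fold and section DES B gave poorly separated regions.

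The family is usually sorted by where the protein sits. CAR2, CAR3 and CAR13 work in the cytosol, CAR4 is tied to the outer membrane by a lipid anchor, and CAR9, CAR12 and CAR14 cross the membrane with the active site outside the cell. CAR8 is related in sequence but has lost catalytic activity. In the uterus these enzymes are known for setting the bicarbonate and acidity of the luminal and glandular fluid, together with bicarbonate and proton transporters, and Car9 is a textbook target of the hypoxia-inducible factors.

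The members lie on 4 chromosomes of GRCm38, the build of the files. Car13 (chr3:14641727-14663002), Car3 (chr3:14863512-14872523) and Car2 (chr3:14886273-14900770) follow each other on the plus strand of chromosome 3, with 200510 bases from Car13 to Car3 and 13750 bases from Car3 to Car2. Car14 lies far from them on the minus strand (chr3:95897768-95904691). Car4 is at chr11:84957786-84966044, Car9 at chr4:43506966-43513729, Car8 at chr4:8143362-8239041 on the minus strand and Car12 at chr9:66713686-66766845. Of the 8 genes, 4 had an entry in the set of RefSeq promoters used here (GRCm38.p6), running from 250 bases before to 50 bases after the RefSeq start. That start is not always the gene start of the GENCODE positions above: it lies 60 bases further into Car9 and 6 bases further into Car14, it is the same for Car12, and for Car4 it lies upstream, so that the Car4 window begins 282 bases before the GENCODE start. Those of Car4, Car9 and Car12, the membrane enzymes with the clearest luminal or glandular pattern below, are shown 5′ to 3′ on the plus strand, with the hypoxia response core (ACGTG or GCGTG, both strands searched) in capitals.
Car9, chr4:43506776-43507075: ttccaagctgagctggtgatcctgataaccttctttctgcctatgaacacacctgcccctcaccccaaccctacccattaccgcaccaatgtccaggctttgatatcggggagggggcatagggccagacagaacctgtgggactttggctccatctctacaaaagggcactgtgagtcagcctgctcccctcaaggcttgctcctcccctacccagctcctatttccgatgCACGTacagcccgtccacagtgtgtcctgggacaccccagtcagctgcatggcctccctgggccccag
Car4, chr11:84957504-84957803: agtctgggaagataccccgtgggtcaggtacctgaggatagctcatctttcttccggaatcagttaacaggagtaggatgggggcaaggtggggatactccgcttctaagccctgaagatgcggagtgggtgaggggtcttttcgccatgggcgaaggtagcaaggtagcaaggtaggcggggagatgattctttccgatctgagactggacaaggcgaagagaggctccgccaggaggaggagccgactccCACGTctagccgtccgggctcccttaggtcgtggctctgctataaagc
Car12, chr9:66713436-66713735: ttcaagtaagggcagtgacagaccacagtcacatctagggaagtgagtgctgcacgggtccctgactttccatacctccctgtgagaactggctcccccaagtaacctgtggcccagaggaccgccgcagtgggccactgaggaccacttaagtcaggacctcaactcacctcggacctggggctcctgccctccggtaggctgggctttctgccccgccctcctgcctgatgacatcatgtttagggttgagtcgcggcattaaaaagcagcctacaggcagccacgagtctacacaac
The core was present once each in the Car9, Car4 and Car14 windows, and it was absent from the Car12 window. Its first base lay 42 bases after the GENCODE start of Car9 (chr4, base 43507008) and upstream of the GENCODE starts of Car4 (chr11, base 84957756) and Car14 (chr3, base 95904692). It was found in 43.8% of all 32851 promoters of this length, so its presence in 3 of 4 windows is a description of letters.

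The CO library held 32387 cells and 353460067 unique molecular identifiers (UMIs), each standing for 1 captured RNA molecule, and the DES library 16312 cells and 288919190 UMIs. Of these cells, 20134 CO and 6611 DES cells carried no cell type in the authors' annotation, and 180 cell barcodes occurred in both libraries. The epithelial class held 2583 CO and 5255 DES cells, and in the DES library 4608 of them lay in the 16 non-basal clusters and 608 in the integrated clusters 8 and 11, here called basal cells from their Krt5, Krt14 and Trp63. The DES library held 1 stromal and 5 endothelial cells, so these types were compared in the CO library alone. Levels are UMIs of a gene per 1000000 UMIs of the cell group (CPM), with exact Poisson 95% intervals in brackets. Shares of cells with a UMI were taken after thinning each cell to 3000 UMIs, with exact Clopper-Pearson 95% intervals. The intervals take in counting error alone. Each condition had 1 library, so CO and DES cells could not be tested against each other, and clusters were built from the same counts, so a cluster against the rest is a description as well. Free RNA was gauged from lymphocytes of the same library, which had median depths of 4033 UMIs (CO) and 5599 UMIs (DES) against 23458 and 24663.5 UMIs in the non-basal epithelium.

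Car2, the widespread cytosolic enzyme of high activity, was the epithelial member of the cytosolic enzymes, and its level was lower in the DES epithelium. In the non-basal epithelial cells Car2 stood at 1211 CPM in the CO library (95426 UMIs) and 312 CPM in the DES library (51179 UMIs). The CO level was 3.88-fold higher [3.84 to 3.92]. A Car2 UMI was found in 90.9% of thinned CO cells [89.7 to 92.0] and in 54.5% of thinned DES cells [53.0 to 55.9], and without thinning in 99.4% and 94.9%. Lymphocytes carried Car2 in 155 of 310 thinned CO cells and in 9.39% of thinned DES cells (67.1% and 15.9% without thinning), so the background of the CO library was the higher of the pair. Within each library the epithelium nevertheless stood above its own lymphocytes, by 5.45-fold [5.00 to 5.97] in CO and 8.15-fold [6.29 to 10.8] in DES.

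Outside the CO epithelium, the Car2 level ran in the order lymphocytes (222 CPM), pericytes (218 CPM), myocytes (203 CPM), the Ctla2a group (163 CPM), endothelial cells (158 CPM), myeloid cells (138 CPM), stromal cells (108 CPM), the Stmn1-hi group (89.7 CPM) and mesothelial cells (85.0 CPM). Lymphocytes, pericytes and myocytes overlapped in their intervals, and none of these types exceeded the lymphocyte level, so Car2 there was not separable from free RNA. In the DES library the lymphocytes stood at 38.3 CPM [29.0 to 49.6] and the mesothelial cells at 26.6 CPM. Basal cells held 49.3 CPM, and the non-basal epithelium was 6.33-fold above them [5.81 to 6.90]. The basal share of thinned cells with Car2, 11.2% [8.83 to 14], overlapped that of DES lymphocytes. In both libraries the epithelium held the highest Car2 level of the typed cells.

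Among the 15 CO epithelial clusters, Car2 ranged from 222 CPM in cluster 13, the mature gland, to 1517 CPM in cluster 1, with a median of 1187 CPM. The luminal clusters together stood at 1265 CPM and the developing gland clusters 3, 8 and 14 at 825 CPM, a ratio of 1.53 [1.5 to 1.57]. The luminal level was 5.69-fold above that of the mature gland cluster [4.95 to 6.58]. The 16 DES clusters were lower and closer together, from 226 CPM in cluster 0 to 582 CPM in cluster 15, with a median of 320 CPM, and 14 of 15 CO clusters exceeded every DES cluster. Cluster 5, the proposed cancer cells of the DES library, held 312 CPM, near that median.

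Car13, another cytosolic enzyme, followed the basal cells. The DES basal cells held 42.1 CPM of Car13 (454 UMIs), with 51.3 CPM in integrated cluster 8 and 26.7 CPM in integrated cluster 11. Non-basal epithelium held 2.75 CPM in CO and 1.36 CPM in DES, both within the interval of the lymphocytes of that library (2.67 CPM [0.980 to 5.81] and 3.36 CPM [1.09 to 7.83]). The basal level was 31.0-fold above the non-basal DES epithelium [26.3 to 36.5] and 12.5-fold above DES lymphocytes [5.33 to 38.8]. In thinned cells, a Car13 UMI was found in 8.43% of basal cells [6.34 to 10.9], in 0.526% of non-basal DES cells and in 0 of 213 DES lymphocytes, where a limit of 3 cells allows a share of up to 1.41% (exact interval up to 1.72%). Without thinning these shares were 39.6%, 4.34% and 1.26%.

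Car13 also stood above lymphocytes in some other cell types. The DES myeloid group called DES-Myeloid-Lyz2hi held 15.3 CPM [10.6 to 21.3], the highest level of the DES cell types outside the basal cells. Its interval takes in the DES mesothelial level of 13.7 CPM, so the rank is not separable. The other DES myeloid cells held 5.88 CPM [3.04 to 10.3], within reach of the lymphocytes. Mesothelial cells, the outer lining of the uterus, held 12.9 CPM in CO and 13.7 CPM in DES, a DES to CO ratio of 1.06 [0.971 to 1.16], and these levels were 4.83-fold [2.21 to 13.2] and 4.08-fold [1.74 to 12.6] above lymphocytes. CO stromal cells held 11.2 CPM, 4.21-fold above lymphocytes [1.88 to 11.7]. CO myeloid cells (11.4 CPM [4.57 to 23.4]) and myocytes (10.0 CPM [5.01 to 17.9]) had 7 and 11 UMIs, and their intervals overlapped that of the lymphocytes. Among DES clusters, Car13 was highest in cluster 14 (7.84 CPM [4.72 to 12.2]) and cluster 15 (6.03 CPM [3.51 to 9.65]), against a median of 1.15 CPM over the 16 clusters, and both intervals overlapped that of the lymphocytes.

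Car3, a cytosolic enzyme of low activity that is abundant in skeletal muscle and fat, stood far above lymphocytes in the mesothelial cells of both single-cell libraries. Mesothelial cells held 105 CPM in the CO library and 462 CPM in the DES library, and the DES level was 4.41-fold higher [4.30 to 4.52]. Against lymphocytes of the same library the mesothelial level was 26.2-fold higher [13.8 to 57.3] in CO and 40.5-fold higher [25.3 to 69.5] in DES. Other CO groups also exceeded the CO lymphocytes [1.83 to 7.60]. The Stmn1-hi group (22 cells) held 137 CPM [104 to 177] and the myeloid cells (67 cells, 19 UMIs) 30.8 CPM [18.6 to 48.2]. The thinned share of mesothelial cells with a Car3 UMI was 13.4% in CO and 37.8% in DES, against 0.645% and 3.76% of lymphocytes. The unthinned shares were 24.6% and 56.9%, and 1.65% and 7.11%, and the mesothelial median depths were 10436 and 12329 UMIs. Non-basal epithelium held 1.55 CPM of Car3 in CO and 2.46 CPM in DES, at or below the lymphocyte levels of 4.0 and 11.4 CPM, so the epithelial difference is not read as one of expression.

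**Figure D1:**
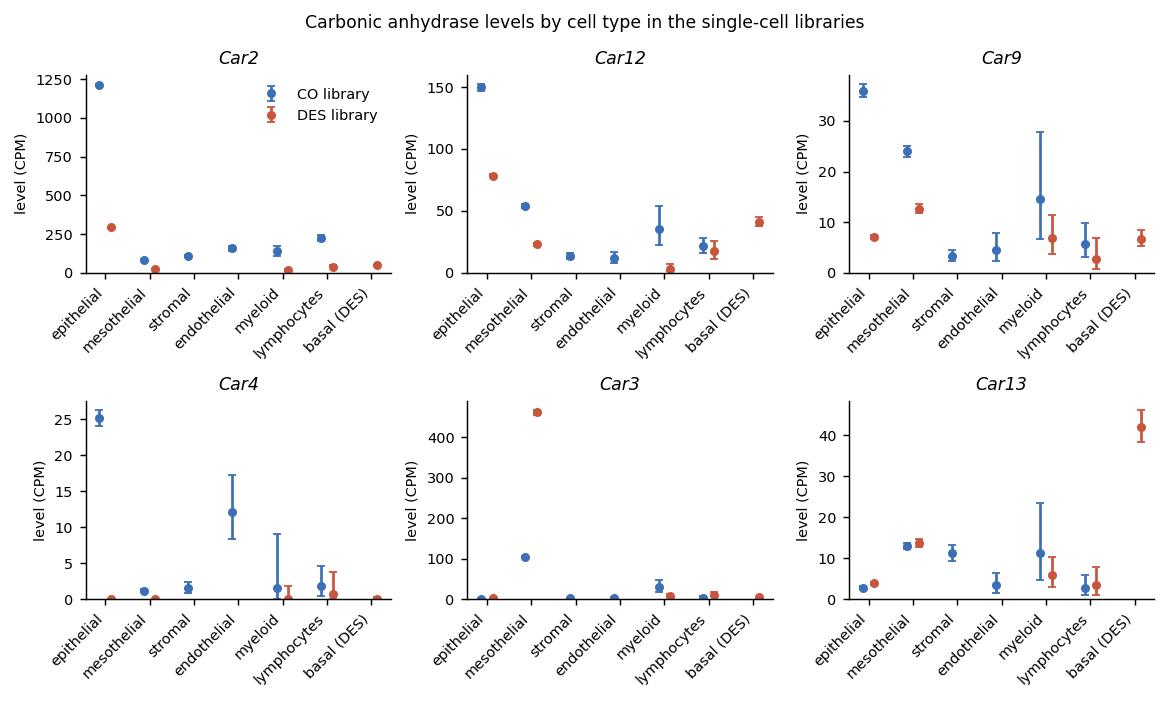
Levels of 6 carbonic anhydrases (CPM, y axis) by cell type (x axis) in the CO library (blue) and DES library (red), points with exact Poisson 95% intervals. The epithelial points take in all epithelial cells, basal ones included, and the basal points are DES cells of integrated clusters 8 and 11, where Car13 stood at 42.1 CPM. Car2 is highest in CO epithelium, and Car3 in DES mesothelium.

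Car4, the lipid-anchored enzyme of the outer membrane, separated the developing gland clusters of the CO library from the luminal ones. In the CO library Car4 stood at 228 CPM in cluster 3, 240 CPM in cluster 8 and 348 CPM in cluster 14, a cluster the study places at the start of gland differentiation. The other 12 clusters held from 0 to 2.73 CPM, cluster 13, the mature gland, among them at 1.12 CPM. The 3 developing gland clusters together held 245 CPM against 0.878 CPM in the luminal clusters, a ratio of 279 [216 to 367]. After thinning, 34.6% of developing gland cells [29.7 to 39.9] carried a Car4 UMI, against 0.193% of luminal cells and 0.968% of lymphocytes. Without thinning the shares were 62.0%, 2.10% and 0.946%.

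In the DES library, Car4 was all but undetected. The 4608 non-basal DES cells held 3 Car4 UMIs, against 1978 in the 2583 CO cells, a DES to CO ratio of CPM of 0.000729 [0.00015 to 0.00213]. No thinned DES cell of 4559 carried a Car4 UMI, where a limit of 3 cells allows a share of up to 0.0658% (exact interval up to 0.0809%). The basal cells held 0 of 10789008 UMIs. Outside the epithelium, CO endothelial cells, where this enzyme is known from capillaries, held 12.2 CPM, 6.84-fold above lymphocytes [2.43 to 26.6]. CO mesothelial cells held 96 Car4 UMIs and DES mesothelial cells 0, a level at least 24.9-fold lower in DES with the floor set at 3 UMIs for the whole group. The CO mesothelial level of 1.16 CPM lay within the lymphocyte interval of that library.

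Car9, a membrane enzyme with its active site outside the cell, was luminal in the CO library and low in the DES library. It stood at 36.0 CPM in CO and 7.17 CPM in DES non-basal epithelium, 5.02-fold higher in CO [4.68 to 5.37]. Against lymphocytes of the same library the epithelium was 6.22-fold higher [3.63 to 11.7] in CO and 2.67-fold higher [1.04 to 9.82] in DES, where 4 lymphocyte UMIs set the lower level. The DES-Myeloid-Lyz2hi group (8.08 CPM [4.79 to 12.8]) and the other DES myeloid cells (6.86 CPM [3.75 to 11.5]) overlapped the DES epithelial level. DES basal cells held 6.77 CPM [5.30 to 8.51], so DES epithelial Car9 was not separable from any of these groups. CO luminal clusters held 40.7 CPM and developing gland clusters 3.84 CPM, a ratio of 10.6 [7.42 to 15.8], and cluster 5 led with 84.1 CPM ahead of cluster 9 with 47.3 CPM. The DES clusters lay between 5.95 and 13.1 CPM, the highest being cluster 15, and 10 of 15 CO clusters exceeded all of them. The thinned share of cells with Car9 was 8.78% in CO and 1.78% in DES epithelium, against 1.61% and 0.939% of lymphocytes. The DES lymphocyte share rests on 2 of 213 cells, and its interval [0.114 to 3.35] takes in the DES epithelial share. Unthinned, these shares were 44.4% and 20.6%, and 3.07% and 1.67%.

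Mesothelial cells also held Car9 above their lymphocytes, at 24.0 CPM in CO and 12.6 CPM in DES. The DES to CO ratio was 0.526 [0.484 to 0.571]. Stromal cells (3.24 CPM) and endothelial cells (4.56 CPM) of the CO library did not exceed the lymphocyte level of 5.78 CPM.

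Car12, a transmembrane enzyme known from fluid-moving epithelia, had a smaller difference between the libraries. Non-basal epithelium held 150 CPM in CO (11803 UMIs) and 81.1 CPM in DES (13311 UMIs), 1.85-fold higher in CO [1.80 to 1.89]. The epithelium exceeded lymphocytes 7.01-fold [5.29 to 9.52] in CO and 4.65-fold [3.17 to 7.12] in DES. CO luminal clusters stood at 161 CPM and developing gland clusters at 55.2 CPM, a ratio of 2.92 [2.65 to 3.23]. The CO range ran from 40.8 CPM in cluster 14 to 272 CPM in cluster 10, with 226 CPM in cluster 11 and 113 CPM in the mature gland cluster 13. The DES range ran from 43.0 CPM in cluster 7 to 132 CPM in cluster 10, with a median of 73.5 CPM. The DES clusters overlapped the CO gland clusters, and 10 of 15 CO clusters exceeded every DES cluster.

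The thinned share of cells with Car12 was 29.4% in CO and 19.9% in DES epithelium, against 6.77% and 3.29% of lymphocytes. Unthinned, it was 80.4% and 71.8%, against 11.1% and 6.69%. Mesothelial cells held 53.6 CPM in CO and 23.2 CPM in DES, the former above and the latter within the interval of their lymphocytes (21.4 and 17.5 CPM). DES basal cells held 41.3 CPM, below the non-basal level.

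Car14, a transmembrane enzyme, and Car8, the inactive relative, were near the detection floor of the epithelium. Car14 had 0 UMIs in CO and 1 UMI in DES non-basal epithelium, and mesothelial cells held 23 and 33 UMIs. Car8 had 27 UMIs in the CO and 9 UMIs in the DES non-basal epithelium, a ratio of CPM of 0.160 [0.0662 to 0.351]. Of the 27 CO UMIs, 13 lay in cluster 13, the mature gland, at 14.6 CPM, and the next cluster held 1.59 CPM. In mesothelial cells Car8 stood at 0.132 CPM in CO (11 UMIs) and 3.3 CPM in DES (213 UMIs), a ratio of 24.9 [13.6 to 50.7]. Both levels lay within the lymphocyte interval of their library, but that interval rests on 1 UMI in each library. The DES mesothelial level [2.87 to 3.77] stood above the non-basal DES epithelium, at 0.0549 CPM [0.0251 to 0.104]. The CO mesothelial level [0.0661 to 0.237] overlapped that of the non-basal CO epithelium, at 0.343 CPM [0.226 to 0.499].

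**Figure D2:**
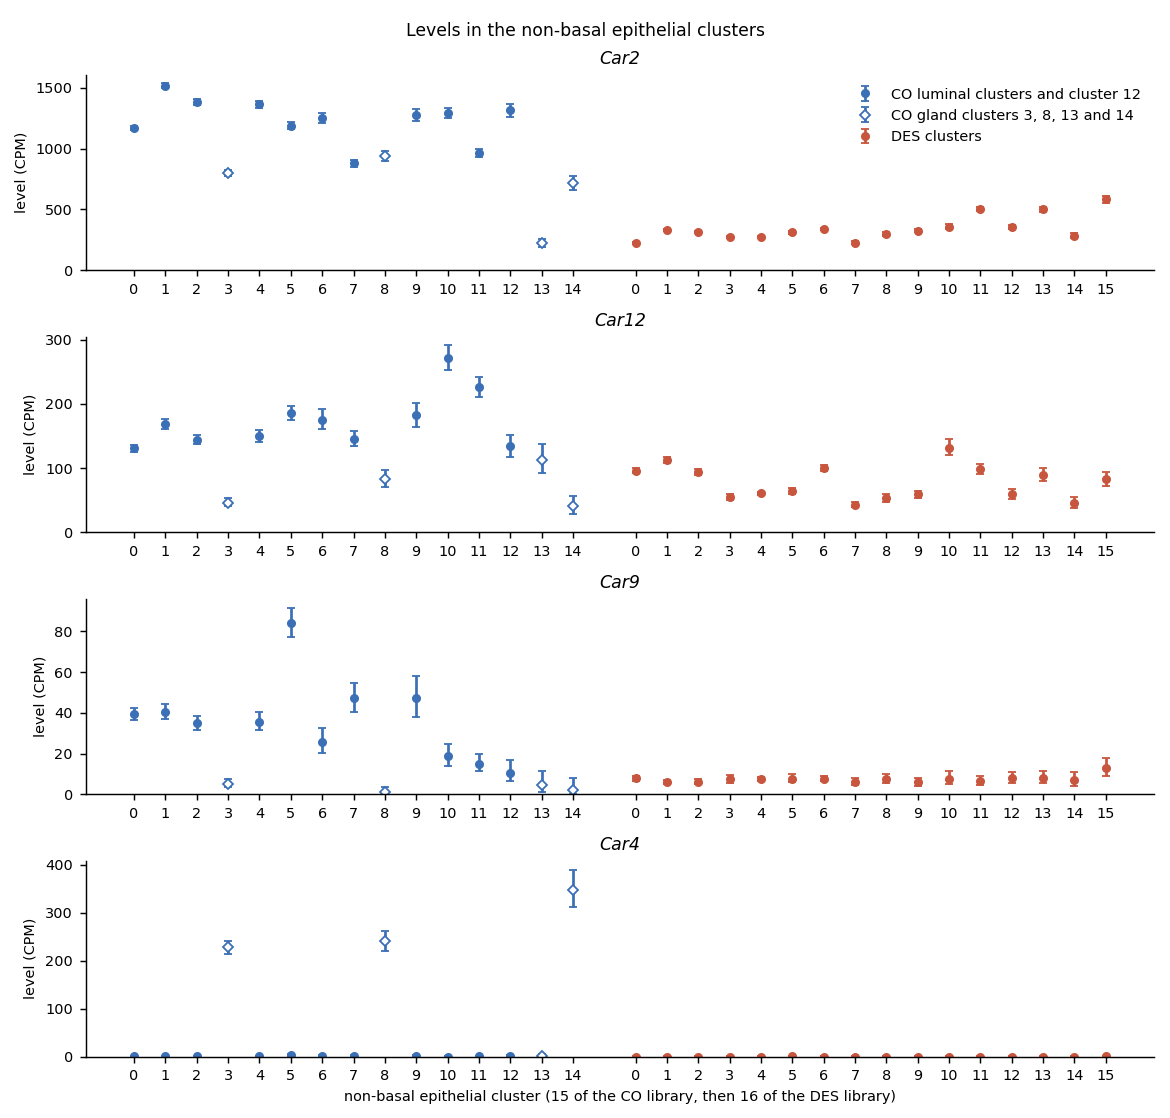
Levels of Car2, Car12, Car9 and Car4 (CPM, y axis) in the 15 CO and 16 DES non-basal epithelial clusters (x axis), with exact Poisson 95% intervals; open diamonds are the CO gland clusters 3, 8, 13 and 14. Car4 stands at 228 to 348 CPM in clusters 3, 8 and 14 and near 0 elsewhere, and among the CO clusters Car9 is lowest in the 4 gland clusters and Car12 in clusters 3, 8 and 14.

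Over the 15 CO clusters, on the scale of log2(CPM + 1), Car4 ran opposite to Car12 (Pearson r = -0.89) and to Car9 (r = -0.75), while Car9 and Car12 ran together (r = 0.70). Car2 followed Car9 (r = 0.55) and Car12 (r = 0.40) less closely, and over the 16 DES clusters Car2 and Car12 gave r = 0.44. The points are clusters of 1 library and share its depth and its free RNA. Over all 31 clusters and 8252 genes, the genes most like Car2 were Plcxd3 (r = 0.94), Lgals3bp (r = 0.92) and RP24-181G14.2 (r = 0.92). The genes most like Car4 were Ptgdr, Nmb and Kcne2 (each r = 0.98). The nearest to Car9 were Krt8, Capzb and Atp6v0a1 (r = 0.93, 0.93 and 0.92), and to Car12 were Scml4, Tex2 and Unc5cl (r = 0.92, 0.91 and 0.91). These likenesses take in the difference between the libraries.

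Of the 8 members, 4 reached 20 CPM in the non-basal epithelium of either library (Car2, Car4, Car9 and Car12). Of these, 3 were at least 2-fold lower in DES and 0 at least 2-fold higher, beside 8.13% of 6184 genes that were at least 2-fold lower and 5.5% that were at least 2-fold higher. Since the members were chosen on these values, nothing is read from that count. The median log2 ratio of DES to CO was -2.07 over the 4 members and 0.02 over all genes at that level. Of the other carbonic anhydrases, 1 of 8 reached 20 CPM: Car5b, the mitochondrial enzyme, with 56.3 CPM in CO and 33.5 CPM in DES. The list of bicarbonate and proton transport genes had 7 of 22 at that level, with a median of -0.86, and 3 were at least 2-fold lower in DES: the chloride and bicarbonate channel Cftr (107 and 50.7 CPM), the lactate carrier Slc16a1 (69.8 and 29.5 CPM) and the sodium bicarbonate cotransporter Slc4a4 (23.7 and 8.25 CPM). The list of hypoxia-responsive genes had 15 of 20 at that level, with a median of -1.13, of which 10 were at least 2-fold lower and 0 higher. Its largest differences were in Adm (48.3 and 3.22 CPM), Egln3 (95.7 and 8.48 CPM) and Hk2 (77.9 and 11.7 CPM). In the epithelium-rich spots of the sections, Adm stood at 3.45, 3.71, 2.16 and 3.97 CPM and Hk2 at 11.7, 1.54, 10.4 and 13.7 CPM in CO A, CO B, DES A and DES B, with the groups overlapping for both genes.

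The 4 sections gave the only replicated comparison. CO A held 1433 spots and 12506177 UMIs, CO B 1834 spots and 11032957 UMIs, DES A 1575 spots and 9117099 UMIs, and DES B 1357 spots and 9880021 UMIs. A spot covers several cells, so that fewer cells of a type and less RNA per cell cannot be told apart in these data. Sums per section were fitted with edgeR over all genes. Since section and spot cluster levels were among the values that chose the 8 members, their log2 fold changes are given with standard errors (SE) as a description and no test of a member is given. Of the 8 members, 6 passed the filter on low counts in whole sections, and Car4 and Car8 did not. The summed epithelial markers stood at 3819, 2480, 3836 and 4178 CPM in CO A, CO B, DES A and DES B, while the summed basal markers Krt5, Krt14 and Trp63 stood at 3.36 and 160 CPM in CO A and CO B and at 9526 and 5644 CPM in DES A and DES B.

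Car2 stood at 834 and 1110 CPM in CO A and CO B, and at 97.0 and 149 CPM in DES A and DES B. The groups did not overlap, and both DES sections were far below both CO sections. The share of all genes whose groups do not overlap was not counted, so nothing is read from non-overlap for any member. The fitted log2 fold change was -3.18 (SE 0.32), 9.07-fold lower in DES, and ran from -3.58 to -2.89 with 1 section left out.

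Car13 stood at 6.16 and 4.44 CPM in CO A and CO B (77 and 49 UMIs) and at 17.9 and 20.6 CPM in DES A and DES B (163 and 204 UMIs). Here the DES sections were the higher pair, without overlap. The log2 fold change was 1.65 (SE 0.28), 3.14-fold higher in DES, and ran from 1.41 to 1.93 with 1 section left out. The basal markers were higher in the same sections. The summed myeloid markers were higher there too (199 and 453 CPM in CO A and CO B, 1685 and 873 CPM in DES A and DES B), and the summed muscle markers were lower (14758 and 16169 CPM against 3562 and 4036 CPM). The part of these markers in the Car13 difference was not tested.

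Car12 stood at 144 and 133 CPM in CO A and CO B and at 50.7 and 72.5 CPM in DES A and DES B, again without overlap. Its log2 fold change was -1.37 (SE 0.25), and -1.71 to -1.13 with 1 section left out. Car9 stood at 24.1 and 1.90 CPM in CO A and CO B, and at 4.61 and 4.55 CPM in DES A and DES B. CO A was alone high, and CO B lay below both DES sections. The log2 fold change was -1.74 (SE 1.11), it became -2.63 without CO B, and it turned to 1.08 without CO A.

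Car3 stood at 1.36 and 4.89 CPM in the CO sections and 13.8 and 6.07 CPM in the DES sections. Its log2 fold change was 1.47 (SE 0.70), 2.61 without CO B, 0.82 without CO A, 0.80 without DES A, and 0.29 without the 9 spots of DES A cluster 9, which are described with the spot clusters. Car14 had 14, 21, 12 and 9 UMIs in CO A, CO B, DES A and DES B (log2 fold change -0.64, SE 0.53, and -0.96 to -0.25 with 1 section left out, the latter without CO B). Car8 had 1, 7, 1 and 1 UMIs. Car4 had 0 and 2 UMIs in the CO sections (intervals up to 0.295 and 0.655 CPM) and 16 and 0 UMIs in the DES sections. The high Car4 of the developing gland clusters in the dissociated CO cells had no counterpart in the CO sections. The reason was not tested.

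**Figure D3:**
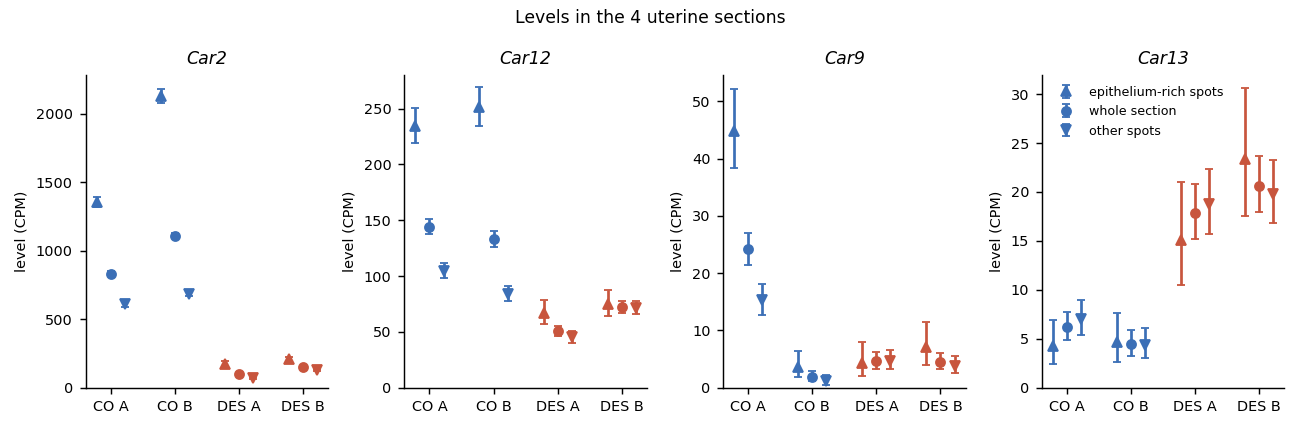
Levels of Car2, Car12, Car9 and Car13 (CPM, y axis) in the 4 sections (x axis; CO blue, DES red), for epithelium-rich spots (upward triangles), whole sections (circles) and the other spots (downward triangles), with exact Poisson 95% intervals. Car2 and Car12 are lower and Car13 is higher in both DES sections, and Car9 is high in CO A alone.

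Epithelium-rich spots were the 15% of spots of each section with the highest score of 7 epithelial markers, none of them a carbonic anhydrase, and numbered 215, 275, 236 and 204 in CO A, CO B, DES A and DES B. Of the 8 members, 4 passed the count filter in them. Car2 stood at 1356 and 2130 CPM in the CO sections and 176 and 208 CPM in the DES sections. The groups lay far apart, with a log2 fold change of -3.49 (SE 0.30), 11.2-fold lower in DES. Car12 stood at 235 and 251 CPM in the CO sections and 67.0 and 75.0 CPM in the DES sections, close within each group, with a log2 fold change of -2.08 (SE 0.20), 4.24-fold lower. With 1 section left out, Car2 ran from -3.76 to -3.14 and Car12 from -2.20 to -1.97. In these spots the summed basal markers stood at 4.51 and 187 CPM in CO A and CO B and at 8954 and 5948 CPM in DES A and DES B. The summed myeloid markers stood at 109 and 193 CPM in the CO sections and 1685 and 568 CPM in the DES sections. The epithelial markers that chose the spots stood at 6503, 4760, 5754 and 6258 CPM in CO A, CO B, DES A and DES B. The part of the basal and myeloid markers in the differences between the conditions was not tested.

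Car9 in the epithelium-rich spots stood at 44.8, 3.71, 4.32 and 7.06 CPM in CO A, CO B, DES A and DES B, so that CO A again stood alone (log2 fold change -2.42, SE 1.13). The value was -3.29 without CO B, and the direction turned without CO A, to 0.32. Car13 stood at 4.24 and 4.63 CPM in the CO sections and 15.1 and 23.4 CPM in the DES sections, with no overlap. Its log2 fold change was 1.80 (SE 0.39), and 1.42 to 2.11 with 1 section left out. Car4 had 11 UMIs in the epithelium-rich spots of DES A and 0 in those of the other 3 sections.

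Each section's epithelium-rich spots were then set against its remaining spots, with a term for the section. The score that picked the spots comes from the same libraries. The contrast was not alike in the CO and DES sections. In CO A and CO B, summed epithelial markers stood at 6503 and 4760 CPM in epithelium-rich spots. In whole sections they stood at 3819 and 2480 CPM. For DES A and DES B these values were 5754 and 6258 CPM, and 3836 and 4178 CPM. Summed muscle markers of whole sections stood at 14758 and 16169 CPM in CO and 3562 and 4036 CPM in DES. Their part in the differences of enrichment was not tested. In the CO sections, the log2 fold change between epithelium-rich and other spots was 1.46 (SE 0.16) for Car2, 1.65 (SE 0.26) for Car9 and 1.44 (SE 0.14) for Car12, each higher in epithelium-rich spots. With whole spot clusters of the authors in place of single spots, those whose mean epithelial score exceeded their muscle and stromal scores, these values were 3.08, 2.75 and 3.05. Car13 stood at -0.29, and at 0.15 without CO A. Car3 had 0 and 1 UMI in the epithelium-rich spots of CO A and CO B against 17 and 53 UMIs in the others.

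In the DES sections, Car2 again stood higher in epithelium-rich spots, by 0.93 (SE 0.17), and by 1.68 with the authors' clusters. Car12 stood at 0.24 (SE 0.16), at 0.03 without DES A, at 0.54 without DES B and at 1.06 with the authors' clusters. Car9 stood at 0.36 (1.2 with the authors' clusters) and Car13 at -0.08, and both turned direction when 1 section was left out. Car3 had 0 and 1 UMI in the epithelium-rich spots against 126 and 59 UMIs in the others. The difference in enrichment, DES minus CO, was -1.19 (SE 0.21) for Car12, with -1.42 to -0.84 when 1 section was left out and -1.99 with the authors' clusters. It was -0.54 (SE 0.23) for Car2, which ran from -0.78 to -0.10 (without DES B) with 1 section left out and stood at -1.41 with the authors' clusters. It was -1.30 (SE 0.44) for Car9, from -1.76 to -0.77 (without DES A) with 1 section left out. It was 0.21 (SE 0.41) for Car13, which turned direction without CO A, to -0.22, and without DES B. All these values are on the log2 scale.

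The CO sections differed from each other in Car9. CO A held 302 and CO B 21 Car9 UMIs, a ratio of levels of 12.7 [8.15 to 20.8], and in epithelium-rich spots the ratio was 12.1 [6.74 to 23.8]. Car12, by contrast, differed by a ratio of 1.08 [1.01 to 1.16]. Of the hypoxia-responsive genes, 17 reached 20 CPM in either CO section, and 4 of them were at least 2-fold higher in CO A and 0 in CO B, with a median log2 ratio of 0.65. Over all 7363 genes at that level, 4.03% were at least 2-fold higher in CO A and the median was -0.02. In epithelium-rich spots 5 of 16 were higher in CO A, with a median of 0.78, against 4.85% of all genes. Egln3, the prolyl hydroxylase induced in low oxygen, was named after its values were seen, and was 9.65-fold higher in CO A [8.01 to 11.7]. CO B had the tissue fold, and the part of the fold in these values was not tested.

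The authors defined 10 spot clusters per section. Car2, Car9 and Car12 shared their main clusters in the CO sections, CO A cluster 1 (62.4%, 68.5% and 59.2% of their UMIs in that section) and CO B cluster 2 (72.7%, 71.4% and 72.1%). These shares are not set against the clusters' share of all UMIs, and Car9 had 21 UMIs in CO B. Car2 was highest in the epithelial clusters, with 1390 CPM in CO A cluster 1 and 2198 CPM in CO B cluster 2. The whole sections stood at 834 and 1110 CPM. In DES B, clusters 7 and 2 led with 243 and 234 CPM. In DES A, cluster 10 stood at 1428 CPM [884 to 2182] but held 2 spots and 21 UMIs, and cluster 2 followed with 193 CPM. On the scale of log2(CPM + 1), the correlation with the mean epithelial score was 0.91 over the 20 CO and 0.81 over the 20 DES clusters for Car2, 0.89 and 0.79 for Car12, and 0.43 and 0.38 for Car9. The score is a mean z-score within the section, so its levels are not on one scale across sections, and the clusters share their section's slide and depth.

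Car13 was highest in CO B cluster 10, a patch of 17 spots with the highest basal marker score within its section (5.52), where it stood at 91.5 CPM [54.2 to 145] and 18 of the 49 Car13 UMIs of that section lay. The DES sections held it more broadly, with 42.5 CPM in DES B cluster 7, 28.0 CPM in DES B cluster 1 and 25.1 CPM in DES A cluster 1. The correlation of Car13 with the basal score was 0.66 over the CO and 0.70 over the DES clusters. The CO value rested on that patch: without CO B cluster 10 it was 0.18 over 19 clusters. In CO A the most Car13 UMIs, 31.2%, lay in cluster 2, which had a high muscle score. That share is likewise not set against the cluster's share of all UMIs. Without DES A cluster 1, the highest in basal score within its section, the DES value was 0.69.

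Car3 was concentrated in DES A cluster 9, 9 spots with the highest adipocyte marker score within their section (8.08), at 4934 CPM [4028 to 5984] and with 103 of the 126 Car3 UMIs of the section. DES B cluster 9, 47 spots with mean scores of 0.931 for adipocyte, 1.05 for stromal and 0.427 for mesothelial markers, held 444 CPM and 43 of 60 UMIs. In the CO sections it was highest in CO B cluster 3 (30.3 CPM) and CO A cluster 4 (6.51 CPM). CO B cluster 3 had mean scores of -0.00724 for adipocyte, 0.718 for muscle, 0.638 for stromal and 0.137 for mesothelial markers. CO A cluster 4 had mean scores of 0.253 for adipocyte and 1.21 for muscle markers. The correlation of Car3 with the adipocyte score was 0.62 over the CO and 0.78 over the DES clusters, and with the mesothelial score 0.47 and 0.76. Without DES A cluster 9, which had the highest score of both kinds within its section, the DES values were 0.83 and 0.49. The summed adipocyte markers stood at 10.1, 36.7, 60.5 and 18.0 CPM in CO A, CO B, DES A and DES B, and their part in the Car3 levels was not tested.

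Car14, near absent from the dissociated epithelium, lay mostly in clusters with high muscle marker scores. All 12 of its UMIs in DES A fell in cluster 6 (22.4 CPM), 10 of 14 in CO A in cluster 2, and 11 and 9 of 21 in CO B in clusters 1 and 5. Its correlation with the muscle score was 0.70 over the CO and 0.80 over the DES clusters. Car4 had 13 of its 16 DES A UMIs in cluster 8, a group of 61 spots, at 17.3 CPM [9.22 to 29.6], and no other cluster of the 4 sections held more than 3 UMIs. Car8 had at most 2 UMIs in any spot cluster.

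**Figure D4:**
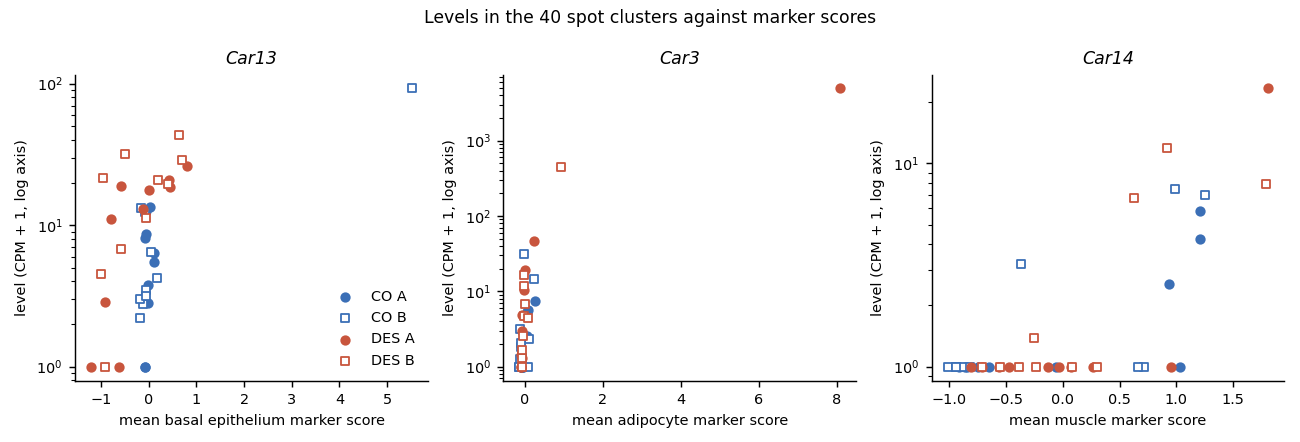
Levels of Car13, Car3 and Car14 (CPM + 1, log axis) in the 40 spot clusters against the mean score of basal epithelial, adipocyte and muscle markers (x axes, mean z-score within the section); filled circles are sections A and open squares sections B, CO in blue and DES in red. The highest Car13 point is CO B cluster 10, the highest Car3 point DES A cluster 9 and the highest Car14 point DES A cluster 6.

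Over the 40 spot clusters and 12328 genes, the genes most like Car2 were Fam213a (r = 0.93), Sftpd (r = 0.90) and Trpv6 (r = 0.90), and those most like Car12 were Cxcl17 (r = 0.93), Gmds (r = 0.93) and Sprr2f (r = 0.92). The nearest to Car3 were Adipoq, Ahsg and Plin1 (each r = 0.84). Likeness was weaker for Car13 (Ces2e 0.79, Ctf1 0.78 and Zfp185 0.74), Car14 (Atcayos 0.78, Reep1 0.76 and Ank1 0.72) and Car9 (Mfsd2a 0.76, RP23-128D9.4 0.68 and Copz1 0.65).

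The pathway lists, which hold no member, were tested in the same section fits (edgeR, quasi-likelihood test, Benjamini-Hochberg adjustment over all genes tested, threshold 0.05). The lists were chosen with earlier results of these data known, so their p-values are not those of lists fixed beforehand. In whole sections 2.63% of all genes passed as lower in DES and 2.67% as higher, and in epithelium-rich spots 2.39% and 3.91%. In whole sections, 3 of the 8 other carbonic anhydrases were tested and 0 passed by edgeR (0 also at an unadjusted p under 0.05, median log2 fold change -0.43). Of 22 transport genes 16 were tested and 0 passed (6 at an unadjusted p under 0.05, median -0.45), beside a median of -0.01 over all genes. Of the 20 hypoxia-responsive genes, 3 passed as lower in DES and 0 as higher (median -0.95): Ankrd37 (-3.56, adjusted p = 0.0246), the mitophagy gene Bnip3 (-1.74, adjusted p = 0.0268) and Ndrg1 (-1.48, adjusted p = 0.0247). In epithelium-rich spots 6 of 20 passed as lower and 0 as higher (median -1.23), led by Ankrd37 (-4.68, adjusted p = 0.0129), the angiogenic factor Vegfa (-3.27, adjusted p = 0.0228) and Ndrg1 (-2.10, adjusted p = 0.0320). There, 0 of 2 other carbonic anhydrases and 0 of 12 transport genes passed by edgeR (1 and 5 at an unadjusted p under 0.05, medians -0.43 and -0.42). The highest mean levels of the transport list over the 4 sections were those of Bsg, a chaperone of lactate carriers (745, 509, 604 and 604 CPM in whole sections), and Slc9a3r1, a scaffold of membrane transporters (84.7, 91.5, 134 and 154 CPM), although in both CO sections the anion exchanger Slc4a2 (97.7 and 143 CPM) stood above Slc9a3r1.

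Between epithelium-rich and other spots of the CO sections, Car5b (1.51) passed as higher and Car11 (-2.11), an inactive relative like Car8, as lower. The shares of all genes that passed in this comparison, 26.8% as higher and 24.1% as lower, stand beside the counts that follow. Of 17 transport genes tested, 6 passed as higher, led by Cftr (1.72), the anion exchanger Slc26a4 (1.56) and Slc4a11 (1.39), and 3 as lower, Slc4a3 (-3.14), Slc4a8 (-1.62) and Slc16a7 (-1.21). Slc4a11 was low, at 6.89 and 1.54 CPM in the epithelium-rich spots of CO A and CO B, and ran from 0.83 to 1.60 over the alternatives. Of the 20 hypoxia-responsive genes, 9 passed as higher, led by Egln3 (1.44), Ankrd37 (1.43) and Ddit4 (1.34), and 1, P4ha2 (-1.07), as lower. In the DES sections, where 3.2% of all genes passed as higher and 7.69% as lower, 2 transport genes passed as higher (Slc26a4 at 1.17 and Slc9a3r1 at 0.48) and 1 as lower (Slc4a3 at -1.08), Car11 (-1.52) passed as lower, and 0 hypoxia-responsive genes passed as higher and 1, Vegfa (-2.16), as lower. In the test of the difference, where 6.02% of all genes passed as lower and 6.26% as higher, Car5b (-1.11) and Cftr (-1.12) passed as less enriched in DES epithelium-rich spots, Slc4a3 (2.06) as more, and 7 hypoxia-responsive genes as less, led by Vegfa (-2.37), Ankrd37 (-1.80) and Ddit4 (-1.18). A fit with 1 section left out leaves 1 section in a group, so calls kept or lost there are not read. Over the alternatives, the hypoxia-responsive genes named for DES against CO kept their direction. In whole sections Ankrd37 ran from -3.99 to -2.94, Bnip3 from -1.90 to -1.56 and Ndrg1 from -1.60 to -1.35. In epithelium-rich spots Ankrd37 ran from -5.05 to -4.16, Vegfa from -3.61 to -2.14 and Ndrg1 from -2.46 to -1.60. By DESeq2, 3 of the 3 calls in whole sections and 6 of the 6 in epithelium-rich spots held. DESeq2 kept 16 of 21 calls between spots of the CO sections, 1 of 5 in the DES sections and 6 of 10 for the difference.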

How the data were processed

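Single-cell libraries of the CO and DES uteri (1 each) and 2 CO and 2 DES spatial sections were analysed. Per the labels and the study's methods, the deposited counts are UMIs, not normalized, that the authors obtained with Cell Ranger 3.0.1 for cells and Space Ranger 1.2.2 for spots on mm10. Cell types, epithelial clusters and spot clusters are the authors' own. They removed doublets before typing the cells, and no doublet caller was run here.

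UMIs were summed per cell group, section, spot cluster or marker-chosen spots and scaled to CPM. Sections were fitted with edgeR 4.0.16 (TMM, its filter on low counts, quasi-likelihood test, Benjamini-Hochberg over all genes tested) in R 4.3.3. Fitted folds of genes with 0 or 1 UMI in a group depend on the prior count, so those of Car3 between spots are no measure of size. The step was tested on simulated data. Alternatives were DESeq2 1.42.0, its size factors, no filter beyond 1 UMI, the omission of each section in turn, a block for the section letter, other choices of epithelium-rich spots, other cell filters and scalings, and 5000 UMIs or no thinning. Those without the adipocyte-marker spot cluster, and without the top-scoring cluster of a correlation, were chosen after seeing the data.

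The members, lists and tests were chosen with earlier results of these data known. All 8 members are named. List genes are those that passed with the 3 largest changes in each direction, and like genes are the 3 with the highest r among genes reaching 20 CPM in a cluster. The tests are read for list genes alone, since section levels were among the values that chose the members. The list tests are limited as well, because the lists were not fixed before earlier results were known. With 2 sections a group, p-values lean on the gene-wide estimate of spread made by edgeR, and no exact test over sections could reach 0.05.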

Additional observations from a re-analysis of the deposited data

Results flagged for a closer look

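The enrichment of 10 genes of the pathway lists in epithelium-rich over other spots differed between the DES and the CO sections in the test of the difference (interaction term in edgeR, quasi-likelihood test, Benjamini-Hochberg adjustment). Tested were 2 other carbonic anhydrases, 17 transport genes and 20 hypoxia-responsive genes. These lists were chosen with earlier results of these data known. Over all genes, 6.02% passed as lower and 6.26% as higher. The other spots were unlike: summed muscle markers of whole sections stood at 14758 and 16169 CPM in CO and 3562 and 4036 CPM in DES. The part of the other spots in these differences was not tested. On the log2 scale, DES minus CO, the difference was -1.11 for Car5b, -1.12 for Cftr and 2.06 for Slc4a3. Among hypoxia-responsive genes it was -2.37 for Vegfa, -1.80 for Ankrd37, -1.18 for Ddit4, -0.91 for Pgk1, -0.76 for Ldha, -0.71 for Egln1 and -0.68 for Mxi1. Adjusted p-values ran from 0.00199 (Ddit4) to 0.0364 (Mxi1). By DESeq2, 6 of the 10 passed. In edgeR, 9 passed with the size factors of DESeq2, 8 with the authors' clusters, 10 with 25% of spots and 10 with every gene of at least 1 UMI. All 10 kept their direction over the 9 alternatives, with Slc4a3 running from 1.32 to 2.35.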

How the results depend on the processing

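Of the alternative log2 fold changes of the members in sections, 10 turned direction. They follow, as the lowest and highest values with 1 section left out. Car9 ran from -2.63 to 1.08 in whole sections and from -3.29 to 0.32 in epithelium-rich spots, positive without CO A in both, and from -0.15 (without DES B) to 0.85 in DES enrichment. Car13 ran from -0.63 to 0.15 (without CO A) in CO enrichment, from -0.34 to 0.20 (without DES A) in DES enrichment, and from -0.22 (without CO A) to 0.56 in the difference, with -0.0099 without DES B. Car3 in the difference ran from -4.74 to 0.70 (without CO B), with 0.61 without DES A. With authors' clusters as the epithelial spots, Car13 in DES enrichment was 0.67. The cause was not tested. In cells, the Car13 ratio of DES to CO was 1.40 over all epithelial cells, which take in the basal cells with 454 Car13 UMIs, against 223 in the non-basal DES cells.

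Genes called numbered 747 in whole sections (1791 by DESeq2, 3 to 2819 with 1 section left out), 725 in epithelium-rich spots (1131 by DESeq2, 1176 with genes of at least 1 UMI, 0 to 2727 with 1 section left out) and 6932 in CO enrichment (4357 by DESeq2). They numbered 1482 in DES enrichment (741 by DESeq2, 4306 with authors' clusters, 352 to 3260 with 1 section left out) and 1672 in the difference (693 by DESeq2, 455 to 3530 with 1 section left out). A lone section was assumed to vary like the other group.

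The labels do not say whether the letters A and B pair the sections. The differences of A minus B were near uncorrelated between CO and DES across genes (r = 0.00516 in whole sections and 0.0479 in epithelium-rich spots). That cannot exclude a pairing, since each difference also holds what sets the 2 sections of a group apart. With the letter as a replicate block, 527 and 1152 genes were called.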

Other observations

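Car5b, the mitochondrial carbonic anhydrase that was not among the members, also leaned to the lumen of the CO library. It stood at 62.4 CPM in the luminal clusters and 13.6 CPM in the developing gland clusters 3, 8 and 14. DES basal cells held 11.8 CPM, and CO and DES lymphocytes 6.67 and 7.39 CPM.

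The 20134 CO cells without a cell type held 445 CPM of Car2 and 10.1 CPM of Car4, and the 6611 such DES cells 159 CPM and 0.0236 CPM (1 UMI). Their Car3 level was 30.6 CPM in CO and 96.6 CPM in DES. In the small CO group called Stmn1-hi (22 cells), Car3 stood at 137 CPM [104 to 177].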
